A study of Mus musculus with 18 samples.

Results

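The genes described here are 10 mouse genes that make, conjugate or regulate bile acids in the liver: Cyp7a1, Cyp8b1, Hsd3b7, Akr1d1, Cyp27a1, Cyp7b1, Amacr, Slc27a5, Baat and Nr0b2. They were chosen by their place in the pathway, as the probes whose RefSeq transcript on the array maps to these symbols, and are 10 of 17721 genes tested. All 10 had a probe well above background on all 18 arrays. Liver RNA of 6-week-old female mice was hybridised to single-colour arrays, 1 per sample, with 3 samples in each of 6 groups. The 3 mutant groups were Nrf1 CKO (Nrf1(dN/-)::Alb-Cre), Nrf2 KO (Nrf2(-/-)) and Keap1 KD (Keap1(Kd/-)). Their controls, each from its own line, were Nrf1 control (Nrf1(dN/+)), Nrf2 control (Nrf2(+/+)) and Keap1 control (Keap1(Kd/+)). The Nrf1 and Keap1 controls thus carried 1 copy of the dN or Kd allele themselves. The strain is labelled mixed for the Nrf1 and Keap1 lines and C57BL/6 for the Nrf2 line. The albumin promoter that drives Cre in Nrf1 CKO mice is active in hepatocytes.

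The liver turns cholesterol into bile acids by a classical pathway, which starts with 7α-hydroxylation of cholesterol in the endoplasmic reticulum, and by an alternative pathway, which starts with oxidation of the side chain in mitochondria. The 2 pathways share the later changes of the steroid ring and the shortening of the side chain in peroxisomes. The products are linked to taurine or glycine before they are secreted into bile. Bile acids limit their own synthesis through the nuclear receptor FXR, which induces the repressor SHP, the product of Nr0b2. The transcription factors NRF1 and NRF2 act through the antioxidant response element, a short DNA motif, and KEAP1 holds the NRF2 protein low.

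Levels are log2 values of the signal divided by the 75th percentile of that array, so that a value of 0 is the signal of a spot at that percentile. Levels of different genes come from different probes and are not set against each other. Changes are differences of these levels, mutant minus own control, tested with limma over all genes and called at an adjusted p under 0.05. Nothing in the labels states whether the 3 samples of 1 group are 3 mice, so the spread within groups could be technical. Limma took the spread of a gene from all 6 groups together. A p-value of 1 line thus does not show the spread of that line's own samples alone. The samples were whole liver, in which fewer cells of a type and less RNA per cell cannot be told apart.

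On each array 21668 to 28213 of 43379 spots were well above background, and the samples of a group correlated at 0.973 to 0.991 across genes. The targeted genes were lower in the lines named for them: Nfe2l1 (Nrf1) was at least 469-fold lower in Nrf1 CKO, with 0 of 3 CKO arrays well above background in these whole livers, Nfe2l2 (Nrf2) was at least 192-fold lower in Nrf2 KO, with 1 of 3 KO arrays well above background, and Keap1 changed by −2.39 in Keap1 KD (limma, adjusted p = 5.88e-15, 4.46e-07 and 0.00124). No source used here places these probes inside or outside the deleted sequence. Hepatocyte markers such as Alb and Ttr were measured in every group. The arrays came from 7 slides. One slide held all 3 Nrf1 CKO arrays and 1 Nrf1 control, one held 1 Keap1 KD array and 1 Keap1 control, and none held both Nrf2 groups. Of the called genes, 42.3% were higher in Nrf1 CKO (55.1% with quantile normalization) and 17.2% were higher in Keap1 KD (27.4% with quantile normalization and 48.8% with scaling to the array median). Scaling to the array median moved the median change of all genes in Keap1 KD to 0.29, against 9e-04 in the scaling used here.

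Sequence around the start of transcription was given by RefSeq (GRCm38.p6; 250 bases before to 50 bases after the start) for 5 of the 10 genes. Hsd3b7 and Akr1d1 are shown because their levels passed the test, and Cyp8b1 because it holds the core of an antioxidant response element, the element that NRF1 and NRF2 bind. Both strands were searched for that core, TGACNNNGC, and for TCAAGG, the core of the site bound by LRH-1, a nuclear receptor through which SHP represses Cyp7a1 and Cyp8b1. Capitals mark a match, as read on the strand shown, which is the strand of the gene, 5′ to 3′.
Hsd3b7, chr7:127800359-127800658, plus strand: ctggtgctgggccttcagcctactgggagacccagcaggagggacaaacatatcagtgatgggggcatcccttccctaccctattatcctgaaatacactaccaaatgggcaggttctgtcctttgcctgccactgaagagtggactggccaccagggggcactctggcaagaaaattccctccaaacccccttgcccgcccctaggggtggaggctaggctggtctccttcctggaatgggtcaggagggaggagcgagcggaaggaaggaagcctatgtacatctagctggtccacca
Akr1d1, chr6:37529923-37530222, plus strand: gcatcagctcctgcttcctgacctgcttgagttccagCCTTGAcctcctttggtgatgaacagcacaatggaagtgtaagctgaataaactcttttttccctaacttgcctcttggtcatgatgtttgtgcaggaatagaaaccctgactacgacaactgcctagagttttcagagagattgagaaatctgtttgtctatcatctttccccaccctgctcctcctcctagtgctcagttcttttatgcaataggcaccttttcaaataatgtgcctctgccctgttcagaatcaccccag
Cyp8b1, chr9:121916256-121916555, minus strand: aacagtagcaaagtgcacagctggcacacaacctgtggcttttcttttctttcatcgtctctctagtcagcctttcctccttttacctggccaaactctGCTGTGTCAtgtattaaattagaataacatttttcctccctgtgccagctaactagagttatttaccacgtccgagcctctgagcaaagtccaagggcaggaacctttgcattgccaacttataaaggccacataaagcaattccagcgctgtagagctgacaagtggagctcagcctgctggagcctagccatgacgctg

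TGACNNNGC was found in 1 of the 5 promoters, that of Cyp8b1, on the strand opposite to the gene with its leftmost base at −151 from the start site. The same letters are in 12.4% of the 32851 mouse promoters of this length. TCAAGG was found in 2 of the 5, once in Akr1d1, on the opposite strand at −213, and 2 times in Nr0b2, on the gene's strand at −68 and −35. It is in 14.4% of all these promoters. The Hsd3b7 window holds neither motif, which says only that these letters are not in this window. The 2 motifs do not overlap in any of these windows. A match is a description of the letters, not a bound site.

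Of the 10 genes 3 were called in Nrf1 CKO, 0 in Nrf2 KO and 2 in Keap1 KD. In Nrf1 CKO livers Cyp7b1, Akr1d1 and Slc27a5 fell and none rose, against 10.9% of all genes called lower and 7.99% called higher. In Nrf2 KO livers limma called none of the 10, against 0.00564% of all genes called higher and 0.0564% called lower. Without adjustment, 4 members were lower there at a limma p under 0.05. The share of all genes at that unadjusted threshold was not counted. Counts at an unadjusted p, here and below, thus have no share to be set against. In Keap1 KD livers Cyp7b1 and Hsd3b7 rose and none fell, against 0.948% of all genes called higher and 4.58% called lower. No member passed an unadjusted p under 0.05 upward in Nrf1 CKO or downward in Keap1 KD. The median change of the 10 genes was −0.67 in Nrf1 CKO, −0.19 in Nrf2 KO and 0.08 in Keap1 KD, beside −0.09, 0.01 and 9e-04 over all genes tested. The plot of changes shows all 30 values with their intervals.

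**Figure D1:**
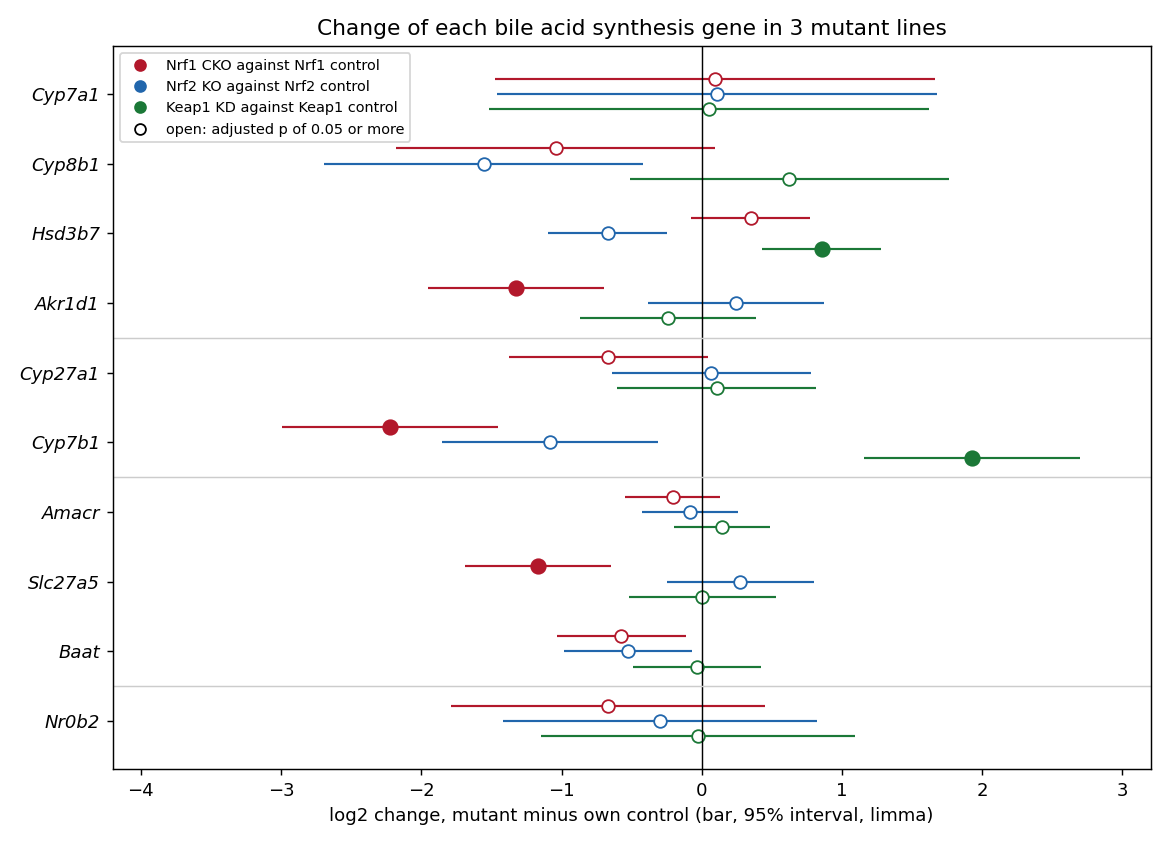
Log2 change (x axis) of each of the 10 genes (y axis) in Nrf1 CKO, Nrf2 KO and Keap1 KD livers against their own controls, with 95% intervals from limma, n = 3 per group. Filled points have an adjusted p under 0.05; Cyp7b1 was at −2.22 in Nrf1 CKO, −1.08 in Nrf2 KO and 1.93 in Keap1 KD.

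Cyp7a1, the rate-limiting enzyme of the classical pathway, was not called in any line, and its spread within groups was wide. Its level was 1.96, 4.40 and 2.85 in the 3 Nrf1 CKO samples, against 3.29, 3.37 and 2.27 in Nrf1 controls. In Nrf2 KO it was 3.65, 2.84 and 2.49, against 1.74, 3.62 and 3.29 in Nrf2 controls. In Keap1 KD it was 0.78, 1.51 and 2.77, against 2.87, 0.25 and 1.78 in Keap1 controls. The groups overlapped in every line. The changes were 0.09 in Nrf1 CKO, 0.11 in Nrf2 KO and 0.05 in Keap1 KD (SE 0.74 each; limma, adjusted p = 0.945, 0.980 and 0.987), and their 95% intervals ran from −1.47 to 1.66, from −1.46 to 1.68 and from −1.51 to 1.62. The intervals of the brighter of 2 Cyp7a1 probes, used here, therefore do not exclude a change of more than 2-fold in either direction. With a slide block the changes were 0.80, 2.48 and 1.08, and with a scan date block 0.09, 2.43 and 1.14, in the same order of lines and none of them called. No slide or scan date held both Nrf2 groups, so that the blocked fits of the Nrf2 line reach across only through the Keap1 arrays. A second, dimmer Cyp7a1 probe gave −0.12, 0.02 and −0.34 in the same order of lines. The 2 probes correlated at 0.726 over the 18 arrays.

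Cyp8b1, the sterol 12α-hydroxylase that sets the share of cholic acid, was lower in all 3 Nrf2 KO samples but did not pass the test. Its level was −1.84, −1.69 and −1.43 in Nrf2 KO, against 0.53, −0.69 and −0.14 in Nrf2 controls. The groups did not overlap, and the change was −1.55 (SE 0.53; limma, unadjusted p = 0.0107, adjusted p = 0.391). No slide or scan date held both Nrf2 groups. With a slide block the change was −1.20 and with a scan date block −1.04 (limma, adjusted p = 0.773 and 0.864). In Nrf1 CKO the level was −2.59, −1.62 and −1.76, against 0.01, −0.70 and −2.15 in Nrf1 controls, where the third control lay among the CKO values. The change there was −1.04 (SE 0.53; limma, adjusted p = 0.181). It was −1.64 without that control, Nrf1 control 3 (limma, adjusted p = 0.0383), and 0.16 with slide as a block, since that control was the one on the slide of the CKO arrays. In Keap1 KD the level was 0.66, −0.32 and −0.58, against −0.18, −0.21 and −1.72 in Keap1 controls, a change of 0.62 (SE 0.53; limma, adjusted p = 0.650).

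Hsd3b7, the 3β-hydroxysteroid dehydrogenase that acts on the 7α-hydroxylated sterols of both pathways, rose in Keap1 KD and was lower, without passing the test, in Nrf2 KO. Its level was 6.52, 6.59 and 6.71 in Keap1 KD, against 5.29, 6.11 and 5.85 in Keap1 controls. Every KD sample was above every control, and the change was 0.86, or 1.81-fold (SE 0.20; limma, adjusted p = 0.0205). In Nrf2 KO the level was 6.15, 5.94 and 5.80, against 6.45, 6.75 and 6.69 in Nrf2 controls, again without overlap (−0.67, SE 0.20; limma, unadjusted p = 0.00423, adjusted p = 0.315), and the change was −1.42 with a slide block and −1.32 with a scan date block, not called. In Nrf1 CKO it was 6.76, 6.62 and 6.54, against 6.47, 6.43 and 5.97 in Nrf1 controls (0.35, SE 0.20; limma, adjusted p = 0.228), and this value passed with quantile normalization (0.83, adjusted p = 0.0217).

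The Keap1 KD change of Hsd3b7 differed from its Nrf2 KO change by 1.52 (SE 0.28; limma, adjusted p = 0.0123), and the Nrf1 CKO change differed from the Nrf2 KO change by 1.02 (SE 0.28; limma, adjusted p = 0.0474). The Keap1 KD call did not hold in a fit with slide as a block (0.76, adjusted p = 0.133), with a scan date block (0.66, adjusted p = 0.187), with the 6 Keap1 arrays alone (0.86, adjusted p = 0.185), and without Keap1 control 1 (0.62, adjusted p = 0.0647), Keap1 control 3 (0.91, adjusted p = 0.0567) or Keap1 KD 3 (0.80, adjusted p = 0.0698). It did not hold either with quantile normalization (0.73, adjusted p = 0.0937) or without a filter on dim probes (0.86, adjusted p = 0.0524). The call was also lost with normexp, here a background correction followed by the same quantile normalization (0.72, adjusted p = 0.0844). The Keap1 KD minus Nrf2 KO difference passed with a slide or scan date block but missed the threshold with quantile normalization (1.30, adjusted p = 0.0532) and with normexp (1.27, adjusted p = 0.0508). No slide or scan date held both Nrf2 groups, so the Nrf2 part of its blocked values was set through the Keap1 arrays. The Nrf1 CKO minus Nrf2 KO difference was lost with a slide block (2.08, adjusted p = 0.0919) and with a scan date block (1.67, adjusted p = 0.0506). Within the slide that held 1 KD and 1 control array the difference was 0.86, and within the scan date that held 1 KD and 2 control arrays it was 0.73.

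Akr1d1, the 5β-reductase that sets the bent shape of the steroid ring, fell in Nrf1 CKO. Its level was −3.36, −3.60 and −3.99 in Nrf1 CKO, against −1.80, −2.78 and −2.41 in Nrf1 controls. All CKO samples lay below all controls, and below every sample of the other 4 groups. The change was −1.32 (SE 0.29; limma, adjusted p = 0.00839). In Nrf2 KO the level was −2.40, −2.29 and −2.07, against −2.09, −2.50 and −2.91 in Nrf2 controls, which overlapped (0.25, SE 0.29; limma, adjusted p = 0.872), and the Keap1 groups overlapped too (−0.24, SE 0.29; limma, adjusted p = 0.778). The Nrf1 CKO change was 1.57 more negative than the Nrf2 KO change (−1.57, SE 0.42; limma, adjusted p = 0.0407), and that difference was −0.81 with a slide or a scan date block (adjusted p = 0.680 and 0.527) and −0.56 with normexp (adjusted p = 0.107). The Nrf1 call did not hold when slide entered as a block (−1.24, adjusted p = 0.217) and without Nrf1 control 1 (−1.06, adjusted p = 0.0504) or Nrf1 CKO 3 (−1.15, adjusted p = 0.0549). The Akr1d1 probe was dim. On the 3 Nrf1 CKO arrays the lowest spot flagged well above background lay at −5.03, −5.15 and −5.28. The change was −1.40 with quantile normalization (adjusted p = 0.00537) and −0.50 with normexp (adjusted p = 0.0278), so that its size depended on the processing. Within the slide of the 3 CKO arrays and 1 control it was −1.24.

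**Figure D2:**
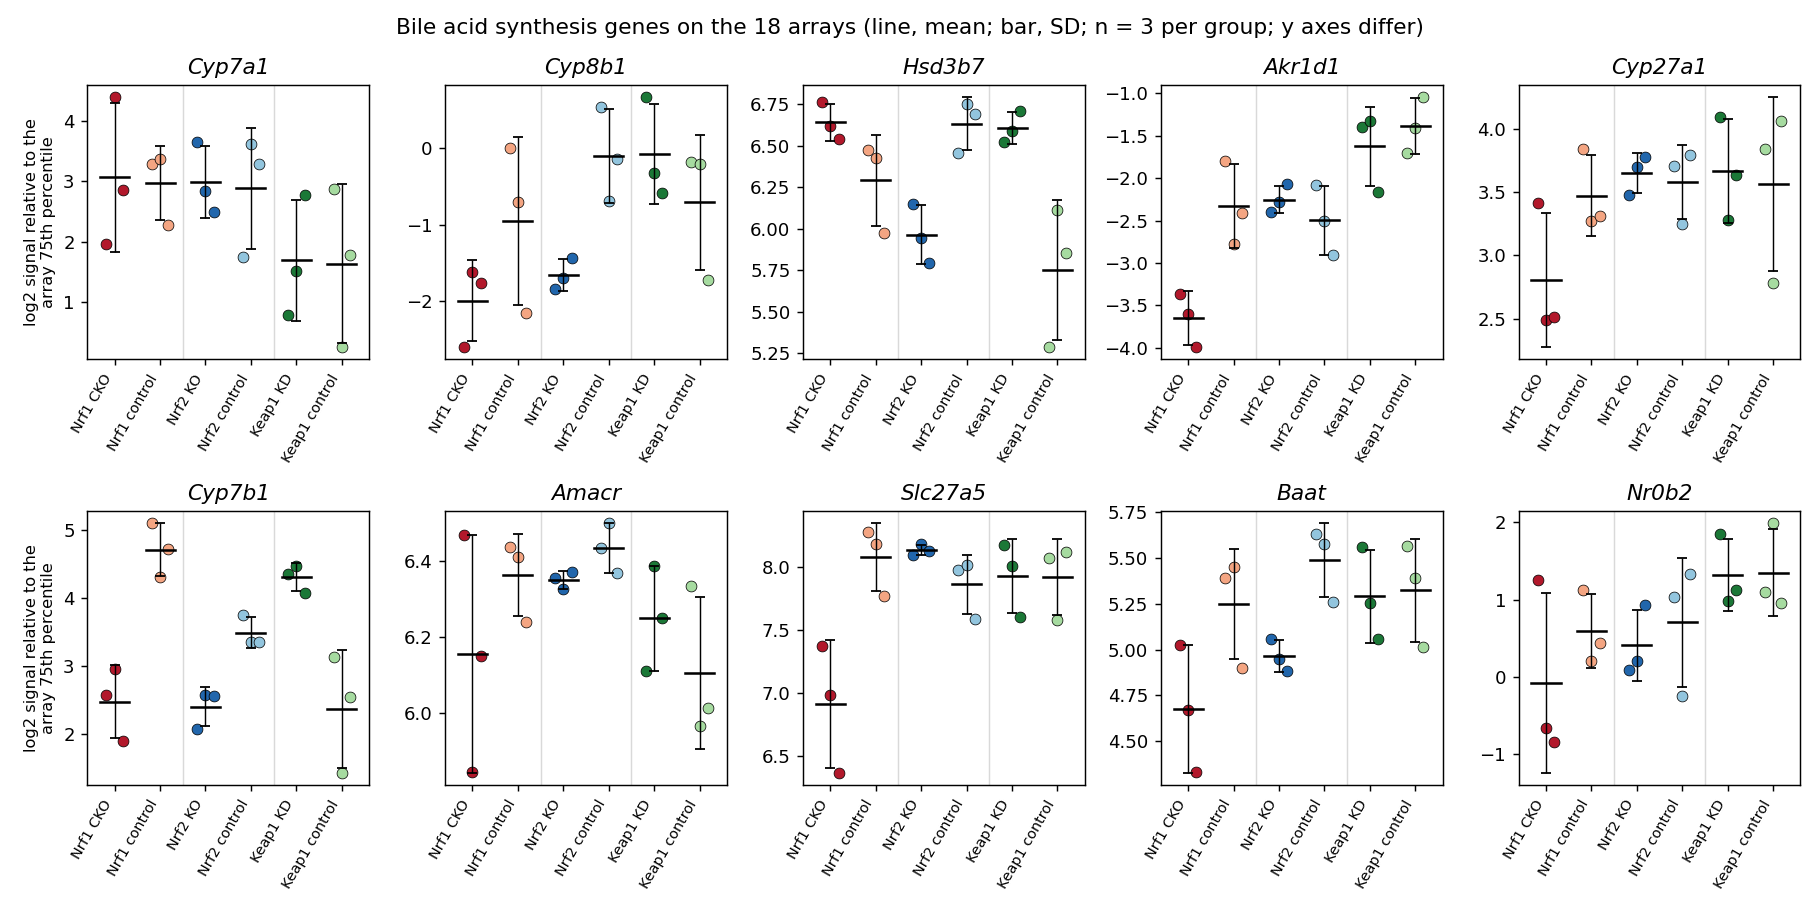
Level as log2 of signal over the array's 75th percentile (y axis, a separate range for each gene) of the 10 genes in the 6 groups (x axis), 1 point per sample, with the mean as a line and the SD as a bar, n = 3. Cyp7b1 lay at 1.90 to 2.96 in Nrf1 CKO and 4.31 to 5.09 in Nrf1 control, and at 4.07 to 4.47 in Keap1 KD and 1.44 to 3.14 in Keap1 control.

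Cyp27a1, the mitochondrial sterol 27-hydroxylase that opens the alternative pathway, was not called in any line. Its level was 3.42, 2.49 and 2.51 in Nrf1 CKO, against 3.84, 3.27 and 3.31 in Nrf1 controls, so that 2 of 3 CKO samples lay below the controls (−0.67, SE 0.33; limma, adjusted p = 0.168). The change was 0.07 in Nrf2 KO and 0.11 in Keap1 KD (SE 0.33 each; limma, adjusted p = 0.974 and 0.933), with overlapping groups.

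Cyp7b1, the oxysterol 7α-hydroxylase of the alternative pathway, had the largest change of the 10 genes in Nrf1 CKO, where it fell, and in Keap1 KD, where it rose. Its level was 2.58, 2.96 and 1.90 in Nrf1 CKO, against 5.09, 4.31 and 4.71 in Nrf1 controls. The 2 groups were more than 1 log2 unit apart at their nearest samples, and the change was −2.22, or 4.67-fold lower (SE 0.36; limma, adjusted p = 0.00183). In Keap1 KD the level was 4.36, 4.47 and 4.07, against 3.14, 1.44 and 2.54 in Keap1 controls, a change of 1.93, or 3.80-fold higher (SE 0.36; limma, adjusted p = 0.00714). In Nrf2 KO it was 2.07, 2.58 and 2.56, against 3.75, 3.36 and 3.36 in Nrf2 controls, without overlap and without passing the test (−1.08, SE 0.36; limma, unadjusted p = 0.00891, adjusted p = 0.383).

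The Nrf1 CKO and Keap1 KD changes of Cyp7b1 differed by −4.15 (SE 0.51; limma, adjusted p = 0.000689), and the Keap1 KD and Nrf2 KO changes by 3.01 (SE 0.51; limma, adjusted p = 0.00763). A slide block ended both calls (−4.29, adjusted p = 0.0549, and 1.80, adjusted p = 0.296), and a scan date block ended the second (2.24, adjusted p = 0.115). The Nrf1 CKO and Nrf2 KO changes differed by −1.14, which did not pass (SE 0.51, 95% interval −2.23 to −0.05; limma, adjusted p = 0.190). Within a slide the Nrf1 CKO difference was −2.23 and the Keap1 KD difference 1.53, and within a scan date the Keap1 KD difference was 2.08. The size of both changes held with slide as a block, but the calls were lost (−2.23, adjusted p = 0.0882 in Nrf1 CKO, and 2.06, adjusted p = 0.0948 in Keap1 KD). The Keap1 call was also lost when only the line's 6 arrays were fitted (1.93, adjusted p = 0.089). The Nrf2 KO value was 0.26 in the fit with a slide block and 0.04 in that with a scan date block.

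The control means of the 3 lines lay apart in Cyp7b1, which was not tested. Strain, control allele and, for most arrays, slide varied along with line, so their parts cannot be told apart. By mean level the order was Nrf1 control (4.70 ± 0.39), Keap1 KD (4.30 ± 0.20), Nrf2 control (3.49 ± 0.23), Nrf1 CKO (2.48 ± 0.54), Nrf2 KO (2.41 ± 0.29) and Keap1 control (2.37 ± 0.86; SD, n = 3 each). The ranges of Nrf1 control and Keap1 KD overlapped, as did those of the 3 lowest groups, while Nrf2 control overlapped neither neighbour. Cyp7b1 is known to be higher in livers of male mice than of female mice. In these female livers 2 of 6 tested male-biased genes rose in Nrf1 CKO, Cyp4a12a by 3.497 and C6 by 1.48. No other male-biased gene had a positive change there, and the median change of the 6 was −0.24. Of 7 tested female-biased genes 2 fell in Nrf1 CKO, Cyp17a1 by 2.48 and Cyp2b9 by 1.77. None of these 7 had a positive change there, and their median was −1.09. Over all genes, 7.99% were called higher and 10.9% lower in Nrf1 CKO. The male-biased list as a whole thus did not rise in Nrf1 CKO. Limma called no gene of either list in Nrf2 KO or Keap1 KD, where 1 female-biased gene was higher (in Nrf2 KO) and 2 male-biased genes were lower (in each line) at an unadjusted p under 0.05. The part of these shifts in the Cyp7b1 values was not tested.

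The 2 pathways were set side by side as the mean change of Cyp7a1 and Cyp8b1 against that of Cyp27a1 and Cyp7b1. In Nrf1 CKO the classical pair changed by −0.47 and the alternative pair by −1.45, in Nrf2 KO by −0.72 and −0.51, and in Keap1 KD by 0.34 and 1.02. The classical minus alternative value per sample, relative to the mean of the line's controls, was −0.24, 1.74 and 1.42 in Nrf1 CKO, against 0.26, 0.62 and −0.87 in Nrf1 controls. It was −1.001, −0.78 and −0.26 in Keap1 KD, against 0.36, 0.41 and −0.77 in Keap1 controls. The groups overlapped in both lines, as they did in Nrf2 KO (0.28, −0.43 and −0.50, against −0.45, 0.31 and 0.14 in Nrf2 controls). Cyp7b1 made up most of the alternative pair's change in Nrf1 CKO and in Keap1 KD. No test was made of this value, which is a score over chosen genes.

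**Figure D3:**
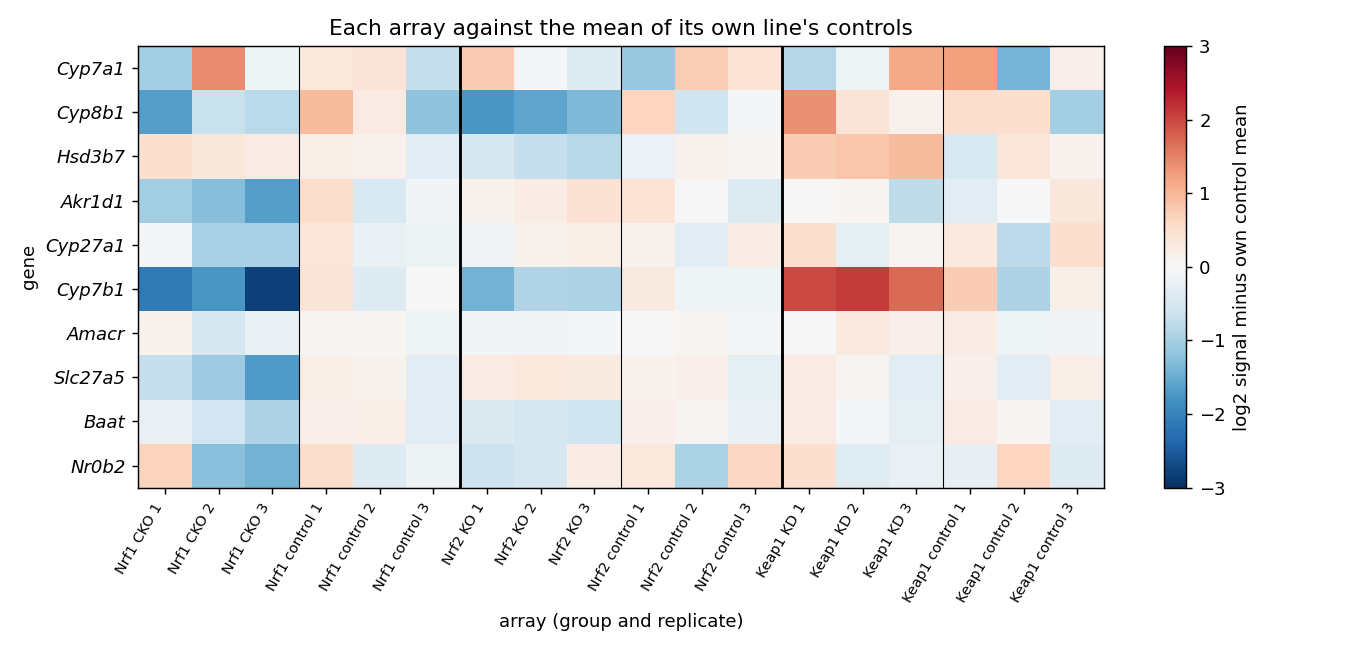
Log2 signal of the 10 genes (rows) on each of the 18 arrays (columns), as colour, minus the mean of the 3 control arrays of the same line. Red is higher and blue lower than that mean; Cyp7b1 was below it on all 3 Nrf1 CKO and all 3 Nrf2 KO arrays and above it on all 3 Keap1 KD arrays.

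Amacr, the racemase that readies the side chain for shortening in peroxisomes, had the smallest range of group means among the 10 genes (0.33). Its changes were −0.21 in Nrf1 CKO, −0.08 in Nrf2 KO and 0.14 in Keap1 KD (SE 0.16 each; limma, adjusted p = 0.379, 0.926 and 0.747), and its 6 group means lay between 6.10 and 6.43. No bound of its 3 intervals lay further from 0 than −0.55.

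Slc27a5, the bile acid CoA ligase that activates bile acids for conjugation, fell in Nrf1 CKO. Its level was 7.38, 6.99 and 6.37 in Nrf1 CKO, against 8.28, 8.19 and 7.77 in Nrf1 controls. The groups did not overlap, and the change was −1.17, or 2.25-fold lower (SE 0.25; limma, adjusted p = 0.00647). All 3 CKO samples were below every sample of the other groups. In Nrf2 KO the level was 8.10, 8.18 and 8.13, against 7.98, 8.02 and 7.59 in Nrf2 controls, without overlap and without a call (0.27, SE 0.25; limma, adjusted p = 0.816), and in Keap1 KD the change was 0.00 (SE 0.25). The Nrf1 CKO change differed from the Nrf2 KO change by −1.44 (SE 0.35; limma, adjusted p = 0.0292), a call lost with a slide block (−1.28, adjusted p = 0.438), a scan date block (−1.52, adjusted p = 0.179) and quantile normalization (−0.97, adjusted p = 0.0544). Its difference from the Keap1 KD change was −1.17 (SE 0.35; limma, adjusted p = 0.0542). The Nrf1 change was −0.65 with quantile normalization (adjusted p = 0.0415), −0.63 with normexp (adjusted p = 0.0305) and −0.86 with slide as a block (adjusted p = 0.296), which equals the difference within the shared slide.

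Baat, which joins the activated bile acid to taurine or glycine, passed the test in no line. Its level was 5.03, 4.67 and 4.33 in Nrf1 CKO, against 5.39, 5.45 and 4.90 in Nrf1 controls (−0.57, SE 0.21; limma, adjusted p = 0.0726). The call was made without Nrf1 control 3 (−0.75, adjusted p = 0.0358) or Nrf1 CKO 1 (−0.75, adjusted p = 0.0274). In Nrf2 KO it was 5.06, 4.95 and 4.88, against 5.63, 5.58 and 5.26 in Nrf2 controls, without overlap (−0.53, SE 0.21; limma, adjusted p = 0.499). A second Baat probe gave −0.43 in Nrf1 CKO, −0.35 in Nrf2 KO and −0.18 in Keap1 KD, where the brighter probe gave −0.03.

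Nr0b2, the FXR-induced repressor SHP, was not called in any line. Its level was 1.25, −0.65 and −0.83 in Nrf1 CKO, against 1.13, 0.21 and 0.44 in Nrf1 controls, with 1 CKO sample above all controls and 2 below them (−0.67, SE 0.53; limma, adjusted p = 0.387). Without that sample, Nrf1 CKO 1, the change was −1.34 (limma, adjusted p = 0.0493). The change was −0.30 in Nrf2 KO and −0.03 in Keap1 KD (SE 0.53 each; limma, adjusted p = 0.917 and 0.990).

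Groups that did not overlap were counted as a second description. They were 4 members in Nrf1 CKO (3 of them lower), 5 in Nrf2 KO (4 of them lower) and 2 in Keap1 KD (both higher). Over all genes 43.4%, 20.8% and 17% did not overlap in these 3 comparisons. Of the differences between lines, 3 members were called between the Nrf1 and Nrf2 effects, 1 between the Nrf1 and Keap1 effects and 2 between the Keap1 and Nrf2 effects, against 5.58%, 6.92% and 3.09% of all genes.

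Over the 18 arrays, after subtraction of each line's mean, Akr1d1 and Slc27a5 had the highest correlation among members (Pearson r = 0.845), followed by Cyp8b1 with Baat (0.706) and Cyp27a1 with Slc27a5 (0.682). Cyp7a1 and Nr0b2 had the lowest (−0.577). These values mix differences between mutant and control with spread within groups, and the points share arrays and slides. Of 12834 genes with a symbol, those most like Cyp7b1 were Tdo2 (0.905), Hopx (0.893) and Acp5 (0.891). Those most like Cyp8b1 were Mien1 (0.878), Zfp326 (0.850) and Gfm2 (0.835), those most like Cyp7a1 were Pacsin3 (0.798), Smad1 (0.795) and Exoc8 (0.772), and those most like Nr0b2 were Snd1 (0.875), Paip2b (0.863) and Gcsh (0.803).

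Other genes of bile acid synthesis also fell in Nrf1 CKO. Over all genes, 10.9% were called lower and 7.99% higher in Nrf1 CKO, and 4.58% lower and 0.948% higher in Keap1 KD. Of 18 other enzymes and carriers 7 fell and none rose, and none rose at an unadjusted p under 0.05 (median −0.55). The peroxisomal CoA synthetase Slc27a2 changed by −1.29 (SE 0.23), the oxysterol hydroxylase Cyp39a1 by −1.13 (SE 0.36), the P450 reductase Por by −1.06 (SE 0.31) and the ferredoxin Fdx1, which hands electrons to mitochondrial P450 enzymes, by −0.92 (SE 0.24; limma, adjusted p = 0.00271, 0.0389, 0.0299 and 0.0178). The steroid dehydrogenase Akr1c14 (−0.84) and the peroxisomal importer Abcd3 (−0.83) also fell, as did the peroxisomal thiolase Scp2 (−0.58), which the naming rule did not include. In Nrf2 KO limma called none of the 18, and 3 were lower at an unadjusted p under 0.05. In Keap1 KD the peroxisomal oxidase Acox2 rose by 1.08 (SE 0.28; limma, adjusted p = 0.0375).

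The transporters and regulators are set beside the same shares of all genes, 10.9% lower and 7.99% higher in Nrf1 CKO, and 4.58% and 0.948% in Keap1 KD. Of 13 tested bile acid and sterol transporters 5 fell and none rose in Nrf1 CKO, and 1 was higher at an unadjusted p under 0.05. They were the half-transporter Abcg8 (−1.28), the uptake carriers Slc10a1 (−1.18), Slco1a4 (−1.18) and Slco1b2 (−0.71), and the exporter Abcc3 (−0.82; limma, adjusted p between 0.0108 and 0.0425). In Keap1 KD the sinusoidal exporters Abcc4 (2.92, SE 0.44) and Abcc3 (1.53, SE 0.25) rose (limma, adjusted p = 0.00262 and 0.00378). Abcc3 thus fell in Nrf1 CKO and rose in Keap1 KD, as Cyp7b1 did, and stood at −1.23 in Nrf2 KO without passing the test. Of the 20 tested regulators 4 fell in Nrf1 CKO, the xenobiotic receptors Nr1i2 (−1.10) and Nr1i3 (−0.91), the hepatocyte factor Cebpa (−0.84) and the small Maf protein gene Mafg (−0.75; limma, adjusted p between 0.00617 and 0.0338), and none rose. The FXR gene Nr1h4 was at −0.11 in Nrf1 CKO and the LRH-1 gene Nr5a2 at −0.09. No transporter in Nrf2 KO, and no regulator in Nrf2 KO or Keap1 KD, was called by limma. At an unadjusted p under 0.05, 2 transporters and 2 regulators were lower in Nrf2 KO and no regulator moved in Keap1 KD.

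**Figure D4:**
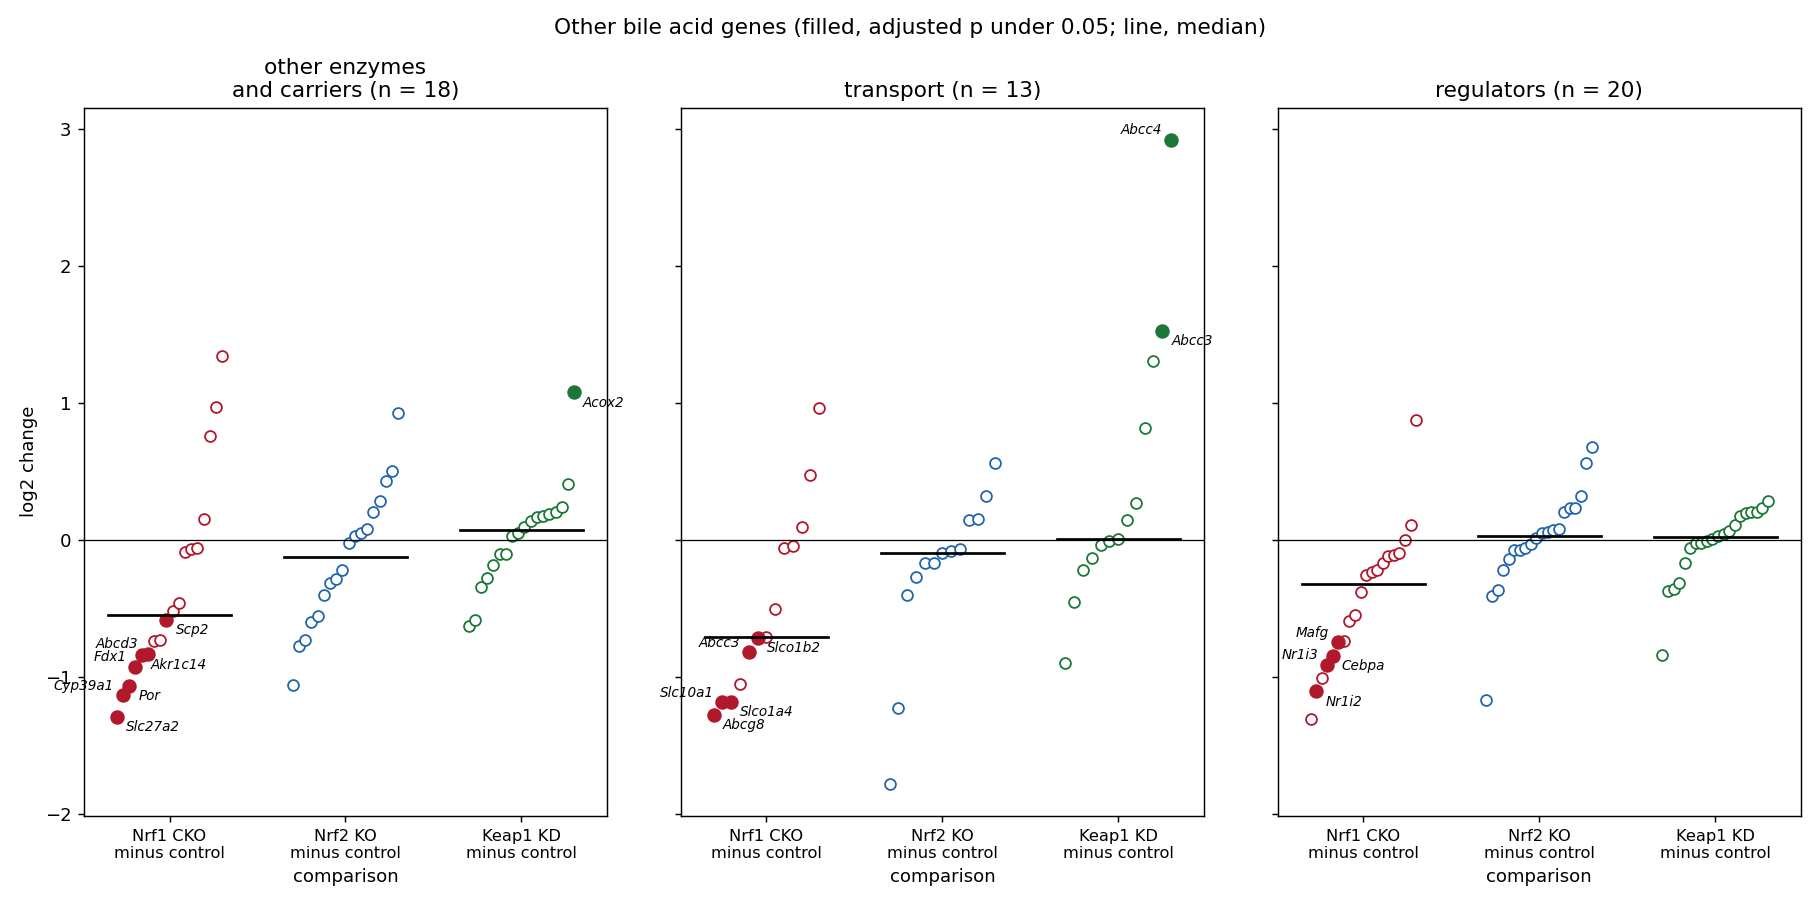
Log2 change against the line's own control (y axis) of 18 other enzymes and carriers, 13 transporters and 20 regulators in the 3 lines (x axis), 1 point per gene in order of change. Filled points have an adjusted p under 0.05 and lines are medians, which were −0.55, −0.70 and −0.32 in Nrf1 CKO.

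Markers of the liver's cell types moved in Nrf1 CKO as well, where 10.9% of all genes were called lower and 7.99% higher. Of 11 tested hepatocyte markers 7 fell and none rose (median −0.79), and their summed signal, in multiples of the array's 75th percentile, was 2510 to 3580 in Nrf1 CKO and 4250 to 5140 in Nrf1 control. Of 7 periportal markers 5 fell, among them Gls2 (−2.38) and Sds (−2.12). The summed signal of these 7 was 352 to 652 in Nrf1 CKO and 911 to 1140 in Nrf1 control. Of 7 pericentral markers 2 rose, Rhbg (1.54) and Lgr5 (1.47), but only 3 had a positive change and the median was −0.07. The summed pericentral signal overlapped, at 282 to 366 in Nrf1 CKO and 299 to 435 in Nrf1 control. Stellate markers rose in 7 of 8 cases (summed signal 119 to 166 in Nrf1 CKO and 77.9 to 103 in Nrf1 control). Macrophage markers rose in 3 of 8 (76.6 to 270 in Nrf1 CKO and 55 to 103 in Nrf1 control), led by Gpnmb (at least 13.3-fold) and Trem2 (4.15). Gpnmb was well above background on no Nrf1 control array, so only this lower bound is given. The macrophage marker Cd163 fell (−1.50), and all 6 proliferation genes rose (37.4 to 70.4 in Nrf1 CKO and 8.87 to 15.3 in Nrf1 control). Of 6 endothelial markers Lyve1 fell (−2.42; summed signal 29.9 to 49.9 in Nrf1 CKO and 41.7 to 50.1 in Nrf1 control), and of 5 lymphocyte markers Cd8a rose (1.16; 2.56 to 4.91 in Nrf1 CKO and 1.73 to 3.76 in Nrf1 control). Limma called none of 6 cholangiocyte and 3 neutrophil markers, of which 1 was higher at an unadjusted p under 0.05. The part of these shifts in the lower Cyp7b1, Akr1d1 and Slc27a5 signals was not tested.

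In Keap1 KD the 7 tested pericentral markers all had a positive change (median 1.04), of which Rhbg passed the test (1.70, SE 0.46; limma, adjusted p = 0.0409), and their summed signal was 547 to 627 in Keap1 KD and 237 to 509 in Keap1 control. Limma called no hepatocyte and no periportal marker in Keap1 KD, where 1 hepatocyte marker was higher and 1 lower at an unadjusted p under 0.05. Of other cell types 3 markers were called there, where 0.948% of all genes were called higher and 4.58% lower. The macrophage marker Trem2 rose (1.51; summed signal of the list 116 to 127 in Keap1 KD and 47.6 to 98.6 in Keap1 control), the endothelial marker Lyve1 rose (1.09; 25.8 to 44.9 in Keap1 KD and 31.7 to 60.7 in Keap1 control), and the stellate marker Lum fell (−0.87; 93.8 to 129 in Keap1 KD and 115 to 129 in Keap1 control). The part of these shifts in the higher Cyp7b1 and Hsd3b7 signals was not tested. In Nrf2 KO limma called no marker of any cell type or of proliferation, and 2 were higher and 4 lower at an unadjusted p under 0.05.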

How the data were processed

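The members and all gene lists, tests and alternatives were chosen with earlier results of these data known. RNA was extracted with Isogen and 500 ng was labelled with the Quick Amp kit, per the labels' protocols. The authors deposited processed signal intensities from Agilent Feature Extraction (version 10.7.3.1), background-subtracted and not normalized between arrays, per the file headers. The median intensities, deposited beside it, are unprocessed pixel readings according to their headers. Per the file headers, the deposited quality flags and control types are other columns written by that program. The authors' series table equals the processed intensities at all 810324 entries compared. No deposited value was on a log2 scale; the log2 step was taken here.

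Control spots and spots flagged as outliers (1442) were left out. Log2 intensities were scaled to the array's 75th percentile, and the spots of a probe were averaged. A probe was tested if some group had it well above background on its 3 arrays, and the brightest probe of a gene was used. Names were found for 26718 of 41174 probes, 26690 through RefSeq. The model, in limma 3.58.1 under R 4.3.3, had 6 group means over 18 arrays and no trend, with Benjamini-Hochberg adjustment over 17721 genes. No gene coordinates are given beside those of the promoters, since the headers name another genome build. The fit was tested on simulated data. The named genes, apart from Nr1h4, Nr5a2 and Scp2, were fixed by a rule: the 10 members, the 3 targeted genes, up to 6 called genes of each other list by size of change, and the 3 genes most correlated with each of Cyp7a1, Cyp7b1, Cyp8b1 and Nr0b2. Cell type markers were named as examples. Alternatives were quantile normalization, array median scaling, normexp (offset 50) on the median signals followed by quantile normalization, the series table, no filter and a filter on every array. Normexp and quantile normalization thus share a step. Further alternatives were probe means in place of the brightest probe, the arrays of the line alone, slide (7) fixed or random, scan date (4), replicate block, and each sample left out. Samples with the same replicate number did not deviate together in every pair of any line, so no pairing was used. Depth does not apply to arrays, whose number limits the precision.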

Additional observations from a re-analysis of the deposited data

Results flagged for a closer look

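Each result here is a difference between the changes of 2 lines that passed limma's own test of that difference. The change of Hsd3b7 in Nrf1 CKO minus that in Nrf2 KO was 1.02 (adjusted p = 0.0474). The same difference was −1.57 for Akr1d1 (adjusted p = 0.0407) and −1.44 for Slc27a5 (adjusted p = 0.0292). The change of Cyp7b1 in Nrf1 CKO minus that in Keap1 KD was −4.15 (adjusted p = 0.000689). The change in Keap1 KD minus that in Nrf2 KO was 3.01 for Cyp7b1 (adjusted p = 0.00763) and 1.52 for Hsd3b7 (adjusted p = 0.0123). With a slide block the Keap1 KD minus Nrf2 KO difference of Hsd3b7 was the only one of these 6 that still passed (2.18, adjusted p = 0.0213). With a scan date block this difference (1.99, adjusted p = 0.0142) and the Cyp7b1 difference between Nrf1 CKO and Keap1 KD (−4.51, adjusted p = 0.00337) passed. No slide or scan date held both Nrf2 groups, so the blocked Nrf2 KO changes were set through the Keap1 arrays. With the slide block the Nrf2 KO change of Hsd3b7 was −1.42, against −0.67 without it. Its Keap1 KD change lost its call with that block (0.76, adjusted p = 0.133). The Hsd3b7 difference did not pass with quantile normalization (1.30, adjusted p = 0.0532) or normexp (1.27, adjusted p = 0.0508). The Keap1 KD minus Nrf2 KO difference of Cyp7b1 was 1.80 with the slide block (adjusted p = 0.296) and 2.24 with the scan date block (adjusted p = 0.115). The Nrf1 minus Nrf2 differences of Hsd3b7, Akr1d1 and Slc27a5 were near the threshold. That of Hsd3b7 was lost when any 1 of the 12 samples of the lines was left out, with values between 0.86 and 1.11. Those of Akr1d1 and Slc27a5 kept their direction in these fits, at −1.79 to −1.30 and −1.67 to −1.17, but lost the call in 9 and 8 of 12. That of Akr1d1 was about −0.81 with either block and −0.56 with normexp, not called.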

How the results depend on the processing

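None of the 5 calls of members in a line changed direction under the alternatives run. With a slide block the number of called members was 0 in Nrf1 CKO (against 3), 0 in Keap1 KD (against 2), 0 for the Nrf1 minus Nrf2 and Nrf1 minus Keap1 differences (against 3 and 1) and 1 for the Keap1 minus Nrf2 difference (against 2), and the called genes of the array were 65 in Nrf1 CKO (against 3348) and 55 in Keap1 KD (against 979). With a scan date block 1 member and 255 genes were called in Keap1 KD, 7 genes in Nrf2 KO (against 11), 0 members for Nrf1 minus Nrf2 and 1 for Keap1 minus Nrf2. With the line's arrays alone 0 members and 52 genes were called in Keap1 KD and 6 genes in Nrf2 KO. Quantile normalization gave 1 member and 555 genes in Keap1 KD and 1 member for Keap1 minus Nrf2, and normexp gave 1 member, 504 genes and 1 member. Without a filter there were 2117 genes in Nrf1 CKO, 1 member and 615 genes in Keap1 KD, and 0 members for Nrf1 minus Nrf2. With the filter on every array there were 439 genes in Keap1 KD and 2 members for Nrf1 minus Keap1. Array median scaling gave 22 genes in Nrf2 KO and 3 members for Nrf1 minus Keap1. The array's called genes ranged over all alternatives from 8 to 2131 for Nrf1 minus Nrf2 (against 988), from 11 to 2580 for Nrf1 minus Keap1 (against 1226) and from 27 to 652 for Keap1 minus Nrf2 (against 548), lowest with the slide block each time. The causes of these changes were not tested.

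With a replicate block, 2 members were called for Nrf1 minus Keap1 (Slc27a5 at −1.17, adjusted p = 0.0312), and Baat passed in Nrf1 CKO (−0.57, adjusted p = 0.0106). Same-numbered samples deviated together by r of −0.36 to 0.15, which does not settle whether the numbers pair the samples. Every other member call stood with this block.

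Leaving out 1 sample gave 2 to 5 called members and 939 to 4160 called genes in Nrf1 CKO (1216 without Nrf1 control 1, 1181 without Nrf1 CKO 2 and 939 without Nrf1 CKO 3), 0 members and 6 to 12 genes in Nrf2 KO (6 without Nrf2 KO 1), and 1 to 2 members and 350 to 1048 genes in Keap1 KD (350 without Keap1 control 3, 534 without Keap1 KD 1 and 589 without Keap1 KD 3). The members called were 0 to 2 for Nrf1 minus Nrf2, 1 to 2 for Nrf1 minus Keap1 and 2 for Keap1 minus Nrf2. The classical minus alternative value was 0.54 to 1.58 in Nrf1 CKO, −0.46 to −0.06 in Nrf2 KO and −1.06 to −0.47 in Keap1 KD. It was 0.42 in Nrf2 KO with a scan date block and −0.12 in Keap1 KD with a slide block.

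Changes of sign were seen only among values that were not called. In Nrf1 CKO they were Cyp7a1 (−0.0123 with array median scaling, −0.0124 with the mean of its probes, and −0.57 to 0.65 leaving out 1 sample), Cyp8b1 (0.16, slide block) and Amacr (0.26, quantile; 0.23, normexp). In Nrf2 KO they were Akr1d1 (−0.43, slide block; −0.51, scan date block), Cyp7b1 (0.26 and 0.0409), Amacr (0.26 and 0.25 with these blocks, 0.0328 with quantile and 0.0515 with normexp), and, leaving out 1 sample, Cyp7a1 (−0.46 to 0.48), Cyp27a1 (−0.10 to 0.17) and Nr0b2 (−0.77 to 0.0148). In Keap1 KD they were Cyp7a1 (−0.0577, normexp; −0.14, probe mean; −0.64 to 0.67 leaving out 1 sample), Cyp27a1 (−0.0012, quantile; −0.0185, normexp; −0.29 to 0.36), Slc27a5 (−0.0034, quantile; −4e-04, normexp; −0.12, slide block; −0.062, scan date block; −0.17 to 0.17), Akr1d1 (0.0536, array median; −0.40 to 0.0275), Baat (0.26, array median; 0.0554, slide block; −0.19 to 0.0867) and Nr0b2 (0.27, array median; −0.29 to 0.29). Slide as a random block had an estimated correlation of −0.016. Other values that were not called also moved by over 1.5 times with a slide and a scan date block. In Nrf2 KO they included Cyp27a1 (0.72 and 0.50) and Nr0b2 (−0.85 and −0.86). In Keap1 KD they included Akr1d1 (−0.77 and −0.68), Amacr (0.24 and 0.25) and Nr0b2 (−0.36 and −0.35). The Nrf1 minus Nrf2 difference of Cyp7b1 (−2.49 and −2.26) and the Nrf1 minus Keap1 difference of Akr1d1 (−0.48 and −0.64) moved as far. In Nrf1 CKO the slide block gave 0.67 for Hsd3b7 and −0.23 for Baat, and Baat was −0.27 with quantile normalization and −0.21 with normexp. In Nrf2 KO Baat was −0.29 with a scan date block and Cyp8b1 was −0.999 with normexp.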
